A study of Mus musculus with 6 samples.

Results

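Mirtrons are microRNAs (miRNAs) whose hairpin is a short intron. The spliceosome and the debranching enzyme release the hairpin, which then goes to Dicer without being cut by the nuclear RNase Drosha that opens the usual miRNA pathway. miR-320 and miR-484 also bypass Drosha, by another route. Their hairpins are short capped transcripts whose 5′ end is the start of transcription, and they leave the nucleus through the exportin of capped RNAs. The 11 names analysed here were all names of miR-877, miR-1224, miR-1981, miR-702, miR-320 and miR-484 among the 1907 mature miRNAs listed for each library. They come from 6 precursors and were taken by name, with earlier results of these data known.

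Small RNA libraries were made from total RNA of dermal fibroblasts, primary cells taken from newborn mouse skin and expanded for 6 days in culture (passage 1). The caNrf2 group (genotype Col1a2Cre-caNrf2, 3 libraries from 3 mice) carried a constitutively active mutant of Nrf2, the transcription factor of antioxidant and detoxification genes. The ctrl group (genotype Col1a2Cre-wt, 3 libraries from 3 mice) carried the Cre recombinase alone, so Cre was present in all animals. The Col1a2 promoter that drove Cre is used by fibroblasts and other collagen-producing cells, and every mouse had a mixed background of C57Bl/6 and FVB/N in equal parts. Nrf2 is not an miRNA and these counts hold no check of the transgene. Library totals ranged from 13733970 to 28237159 counts in caNrf2 fibroblasts and from 10443268 to 20595024 in ctrl fibroblasts. The 7 fibroblast miRNAs listed as markers summed to 259124 to 293050 CPM (reads scaled to a common library size) in caNrf2 libraries and 281336 to 288446 CPM in ctrl libraries, and 3 of the 7 were called lower.

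The mirtron label was checked against the host genes in the mm10 annotation, since a mirtron is defined by splice sites at the ends of its hairpin. Mir877 (chromosome 17, 35960730 to 35960814, minus strand) was the whole of an 85-base intron of Abcf1, a translation-associated ATP-binding protein. Mir1981 (chromosome 1, 184822407 to 184822488, minus strand) was the whole of an 82-base intron of Marc2, a mitochondrial amidoxime-reducing enzyme. Mir1224 (chromosome 16, 20604452 to 20604536, plus strand) was the whole of an 85-base intron of Vwa5b2. Mir702 (chromosome 5, 136991433 to 136991541, plus strand) lay over a 102-base intron of Plod3, a collagen-modifying lysyl hydroxylase. Its annotated hairpin began 9 bases inside the upstream exon and ended 2 bases before the intron did, but its 5p arm began at the first base of the intron. Neither of the other precursors lay in an intron of a gene on its own strand. Mir320 (chromosome 14, 70443510 to 70443591, plus strand) lay 63 bases upstream of the nearest annotated start of Polr3d, an RNA polymerase III subunit gene on the opposite strand. Mir484 (chromosome 16, 14159626 to 14159692, plus strand) overlapped 19 exonic bases of Marf1, also on the opposite strand.

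The hairpins are shown for their ends. They are given from RefSeq (GRCm38.p6), 5′ to 3′, with the mature arms in capitals. In Mir877, Mir1981 and Mir1224 the outermost bases are the GU and AG of the splice sites, while the annotated hairpins of Mir702 and Mir484 have other ends. In all, 2.99% of the 1005 mouse hairpins in the RefSeq table begin with GU and end with AG.
Mir877: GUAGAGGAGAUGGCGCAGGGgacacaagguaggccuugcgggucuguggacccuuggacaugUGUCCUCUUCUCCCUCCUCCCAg
Mir1981: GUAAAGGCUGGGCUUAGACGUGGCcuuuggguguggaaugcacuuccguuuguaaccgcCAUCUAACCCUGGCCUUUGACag
Mir702: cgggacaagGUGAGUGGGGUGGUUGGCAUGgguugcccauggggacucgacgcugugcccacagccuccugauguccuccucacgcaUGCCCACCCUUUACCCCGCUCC
Mir1224: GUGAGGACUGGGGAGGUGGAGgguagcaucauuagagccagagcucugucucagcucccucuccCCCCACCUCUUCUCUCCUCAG
Mir484: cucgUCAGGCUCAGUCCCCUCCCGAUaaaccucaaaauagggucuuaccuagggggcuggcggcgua

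All 4 mirtron 5p arms began at the first base of their intron. The 3p arms stopped at different distances from the intron's last base, 0 bases for miR-1224-3p, 1 base for miR-877-3p and 2 bases each for miR-1981-3p and miR-702-3p. The predicted folding energy (RNAfold) was -36.5 kcal/mol for Mir877, -30.3 for Mir1981, -47.4 for Mir702, -42.8 for Mir1224 and -24.6 for Mir484. Per 100 bases these energies spanned -50.4 to -36.7 kcal/mol, around a median of -40.6 over all hairpins of the table.

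**Figure D1:**
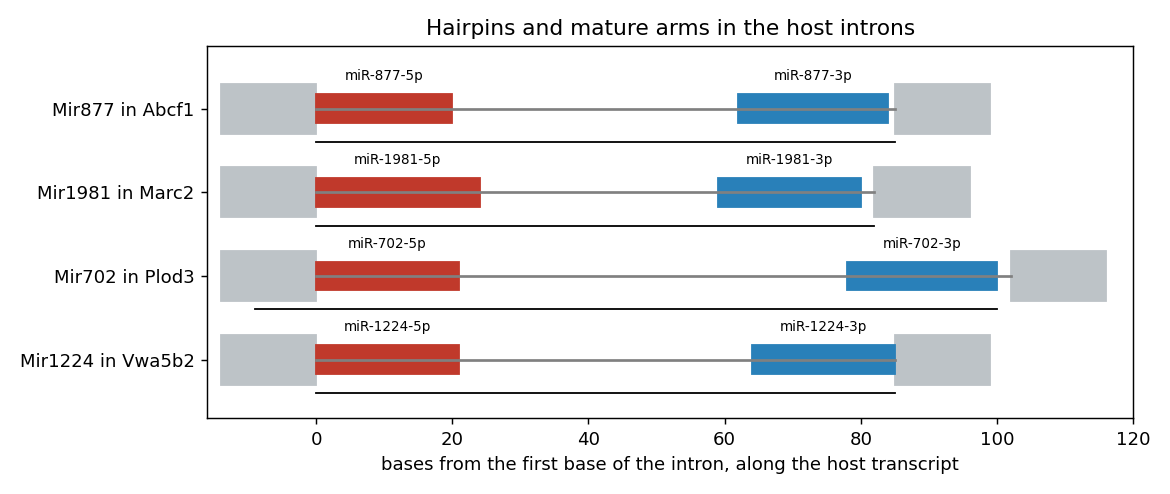
Host introns of the 4 mirtron precursors, with the position in bases from the intron's first base along the host transcript on the x axis. Grey boxes mark the ends of the flanking exons, red boxes the 5p arms, blue boxes the 3p arms and black lines the annotated hairpins; every 5p arm starts at position 0, and the Mir702 hairpin alone extends into an exon.

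The mature arms carried different seeds (bases 2 to 8, in capitals below), the part of an miRNA that pairs with its targets. No seed was shared among the 9 members with a sequence in the RefSeq table, which leaves out both arms of miR-320. Only miR-702-5p shared its seed with another name of the RefSeq table, miR-3102-5p, itself from an intron-filling hairpin.
miR-877-5p: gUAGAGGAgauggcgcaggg
miR-877-3p: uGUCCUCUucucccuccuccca
miR-1981-5p: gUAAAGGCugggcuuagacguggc
miR-1981-3p: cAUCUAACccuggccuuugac
miR-702-5p: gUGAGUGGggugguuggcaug
miR-702-3p: uGCCCACCcuuuaccccgcucc
miR-484: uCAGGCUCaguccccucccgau
miR-3102-5p: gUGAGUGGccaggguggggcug

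The 5p arms of the mirtrons were rich in G, with 55.0% G in miR-877-5p, 57.1% in miR-702-5p, 61.9% in miR-1224-5p and 41.7% in miR-1981-5p, against a median of 26.9% over 1679 mature mouse miRNAs. Their 3p arms held 4.55% to 14.3% G.

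The members spanned a wide range of abundance. miR-484 was the most abundant, at 973 ± 50.9 CPM in caNrf2 and 1030 ± 52.2 CPM in ctrl fibroblasts (mean ± SD, n = 3 per group, counts scaled by library with the TMM method), followed by miR-320-3p at 645 ± 75.6 CPM in caNrf2 and 771 ± 44.98 CPM in ctrl fibroblasts. These ranked 75 and 86 among the 1907 names. The most abundant mirtron arm was miR-877-5p, ranked 157, and the order went on with miR-1981-5p, miR-1981-3p, miR-702-3p, miR-702-5p and miR-877-3p. Within each group, no neighbours in this order had overlapping ranges over the 3 libraries. The narrowest gap was that between miR-702-5p and miR-877-3p in ctrl libraries, whose ranges were 1.23 to 2.02 CPM and 0.770 to 1.22 CPM. Together the 11 members held 0.179% to 0.215% of the counts in caNrf2 libraries and 0.194% to 0.203% in ctrl libraries.

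The remaining 3 names were at or near 0. miR-1224-5p had 1, 1 and 4 counts in caNrf2 libraries 1 to 3 and 2, 0 and 1 counts in ctrl libraries 1 to 3. miR-1224-3p had 0 counts in each caNrf2 library and 0, 1 and 0 counts in ctrl libraries. miR-320-5p, the arm that bears the cap, had 1, 4 and 6 counts in caNrf2 libraries and 0, 6 and 4 in ctrl libraries. A count of 0 allows up to 3 counts, which is 0.107 to 0.210 CPM in caNrf2 libraries and 0.148 to 0.289 CPM in ctrl libraries. The miR-1224 mirtron was thus not measurable at this depth.

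The comparison of caNrf2 with ctrl fibroblasts asked which miRNAs differed between the genotypes. The mirtron miR-877-5p rose, and so did both arms of the mirtron miR-702, while neither miR-320-3p nor miR-484 passed the test in the other direction or in this one. Of the 8 members with enough counts to be tested, 3 were called higher and 0 lower (edgeR quasi-likelihood test, Benjamini-Hochberg adjusted p under 0.05 over all 697 tested miRNAs). At an unadjusted p under 0.05, every tested mirtron arm was higher and 1 of the 8 members was lower. DESeq2 and limma-voom each called 5 members higher and 0 lower. With RLE size factors, another library scaling, 3 were called higher and 1 lower. Over all tested miRNAs 25.7% were called, 14.1% as higher and 11.6% as lower. Among the members, the 4 tested arms of Mir877 and Mir1981, whose hairpins fill an intron, held 1 call higher and 0 lower. The other member calls were those of miR-702, whose annotated hairpin begins inside an exon. The median change on the log2 scale was 0.62 over the 6 tested mirtron arms, -0.17 over miR-320-3p and miR-484, and 0.03 over all tested miRNAs. The members are few and the arms of a hairpin share their source, so these counts and medians describe the members only.

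miR-877-5p had 238, 225 and 232 CPM in caNrf2 libraries 1 to 3, against 131, 129 and 127 CPM in ctrl libraries 1 to 3. The libraries of each group lay close together and the groups were far apart. The means were 231 ± 6.53 CPM in caNrf2 and 129 ± 2.17 CPM in ctrl fibroblasts, a rise of 1.79-fold (95% interval 1.58 to 2.04; log2 fold change 0.84 ± 0.08, SE; edgeR adjusted p = 1.05e-04). This change ranked 63 among the 697 tested miRNAs. The call held in all 15 alternatives, with adjusted p from 4.88e-12 to 0.00127.

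The passenger arm of the same hairpin was sparse. miR-877-3p had 28, 38 and 35 counts in caNrf2 libraries, against 8, 20 and 19 counts in ctrl libraries. In CPM it had 1.96, 1.58 and 1.25 in caNrf2 libraries and 0.770, 1.22 and 0.938 in ctrl libraries, so that the lowest caNrf2 value lay just above the highest ctrl value. The change was 0.64 ± 0.27 on the log2 scale (edgeR adjusted p = 0.112), and it passed in none of its 14 alternatives. The 5p arm made up 99.3% ± 0.14 of the reads from both arms in caNrf2 fibroblasts and 99.2% ± 0.18 in ctrl fibroblasts (SD, n = 3 each).

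miR-702-3p, the more abundant arm of the Plod3 mirtron, had 8.35, 8.64 and 7.80 CPM in caNrf2 libraries, against 5.30, 6.09 and 4.89 CPM in ctrl libraries. It rose 1.52-fold (log2 fold change 0.61 ± 0.14, edgeR adjusted p = 0.00941), and the groups did not overlap. The call was narrowly lost without ctrl library 3 (adjusted p = 0.0522, log2 fold change 0.53). miR-702-5p had 3.09, 4.24 and 2.40 CPM in caNrf2 libraries, against 2.02, 2.01 and 1.23 CPM in ctrl libraries, and rose 1.89-fold (log2 fold change 0.92 ± 0.27, edgeR adjusted p = 0.0311). It rested on 44, 102 and 67 counts in caNrf2 libraries and 21, 33 and 25 counts in ctrl libraries. Its caNrf2 libraries were spread over a wider range than its ctrl libraries. It missed the threshold once any of 3 libraries was left out, namely ctrl library 3 (adjusted p = 0.153), caNrf2 library 2 (0.134) and caNrf2 library 1 (0.0608).

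The Marc2 mirtron gave more balanced arms and smaller differences. miR-1981-5p had 45.7, 34.9 and 36.8 CPM in caNrf2 libraries, against 31.4, 29.1 and 27.4 CPM in ctrl libraries. miR-1981-3p had 26.4, 21.7 and 23.6 CPM in caNrf2 libraries, against 19.7, 17.1 and 15.7 CPM in ctrl libraries. Every caNrf2 library lay above every ctrl library for both arms. The log2 fold changes were 0.42 ± 0.15 for the 5p arm (1.34-fold, 95% interval 1.07 to 1.67, edgeR adjusted p = 0.0602) and 0.45 ± 0.15 for the 3p arm (1.37-fold, 95% interval 1.08 to 1.73, edgeR adjusted p = 0.0516), and neither passed the threshold. The 5p arm passed in 4 of 15 alternatives and the 3p arm in 6 of 15, always as higher, over adjusted p of 0.0363 to 0.178 and 0.0245 to 0.170.

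Each caNrf2 library lay above each ctrl library for all 6 tested mirtron arms, including the 3 that were not called. Of all tested miRNAs 41.6% had groups that did not overlap, and 23.7% had their caNrf2 libraries above the ctrl libraries in this way. The arms of each hairpin are not independent, so the 6 arms stand for 3 introns.

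**Figure D2:**
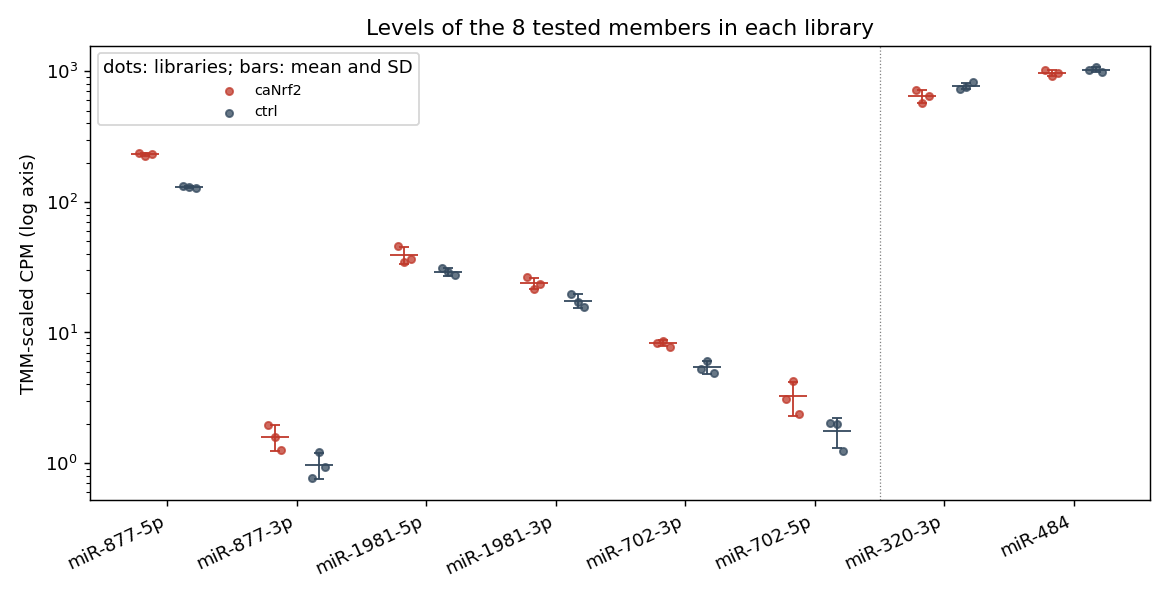
TMM-scaled CPM (log axis) of the 8 tested members, with a dot per library and bars for the mean and SD of 3 libraries (caNrf2 in red, ctrl in grey). The mirtron arms left of the dotted line are higher in caNrf2 libraries, with miR-877-5p at 231 against 129 CPM, while miR-484 overlaps between the groups and miR-320-3p lies lower in caNrf2 libraries.

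For the hairpins made at a transcription start the values were these. miR-484 had 1028, 927 and 964 CPM in caNrf2 libraries, against 1024, 1085 and 981 CPM in ctrl libraries. The groups overlapped, and the fold change of 0.944 had a 95% interval of 0.839 to 1.06 (log2 fold change -0.08 ± 0.08, edgeR adjusted p = 0.467). With 10636 to 26923 counts per library, counting error was small for this miRNA. miR-320-3p had 721, 569 and 645 CPM in caNrf2 libraries, against 733, 759 and 820 CPM in ctrl libraries. All caNrf2 values were lower, by a narrow margin, with a fold change of 0.837 (95% interval 0.721 to 0.970; log2 fold change -0.26 ± 0.10, edgeR adjusted p = 0.0755). It passed as lower with RLE size factors (adjusted p = 0.0451) and without caNrf2 library 1 (0.0280), and in none of the other 13 alternatives.

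**Figure D3:**
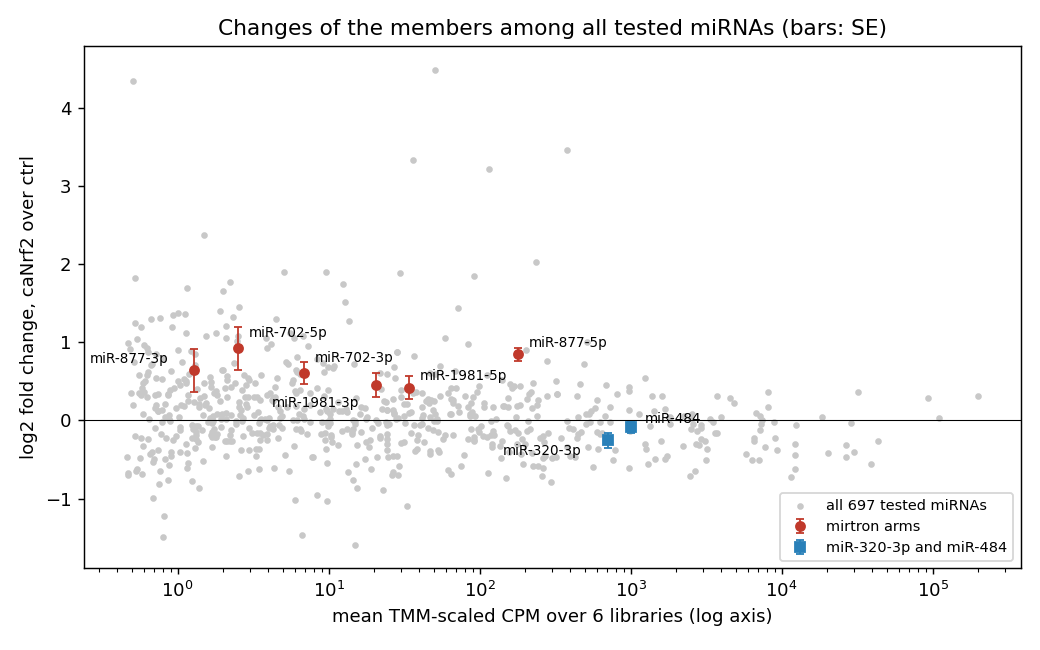
Log2 fold change (caNrf2 over ctrl) against the mean TMM-scaled CPM over 6 libraries (log axis) for 697 tested miRNAs in grey, with mirtron arms in red and miR-320-3p and miR-484 in blue; bars are SEs. The mirtron arms lie between 0.42 and 0.92, and miR-320-3p and miR-484 lie at -0.26 and -0.08.

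Ratios of raw counts within a library do not depend on library scaling. For every 100 counts of miR-484 there were 23.1, 24.2 and 24.1 counts of miR-877-5p in caNrf2 libraries 1 to 3, against 12.8, 11.9 and 12.9 in ctrl libraries 1 to 3. The mirtron arms together had 18.5, 19.8 and 18.9 counts for every 100 counts of miR-320 and miR-484 in caNrf2 libraries, against 10.9, 10.002 and 9.82 in ctrl libraries. miR-877-5p supplied 75.3% ± 1.53 of these mirtron counts in caNrf2 and 70.1% ± 1.45 in ctrl fibroblasts. With miR-877-5p left out, the remaining mirtron arms had 4.89, 4.75 and 4.47 counts per 100 in caNrf2 libraries, against 3.38, 3.01 and 2.78 in ctrl libraries. The ratio was thus higher in every caNrf2 library with and without the most abundant mirtron. These ratios reuse the counts compared above, and their denominator moved as well. The miR-320 and miR-484 names summed to 1618 ± 126 CPM in caNrf2 and 1801 ± 43.8 CPM in ctrl fibroblasts. The mirtron arms summed to 308 ± 14.1 CPM in caNrf2 and 184 ± 6.84 CPM in ctrl fibroblasts. The pair of transcription-start miRNAs kept overlapping ratios, with 70.1, 61.4 and 66.9 counts of miR-320-3p per 100 counts of miR-484 in caNrf2 libraries and 71.5, 69.95 and 83.6 in ctrl libraries.

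**Figure D4:**
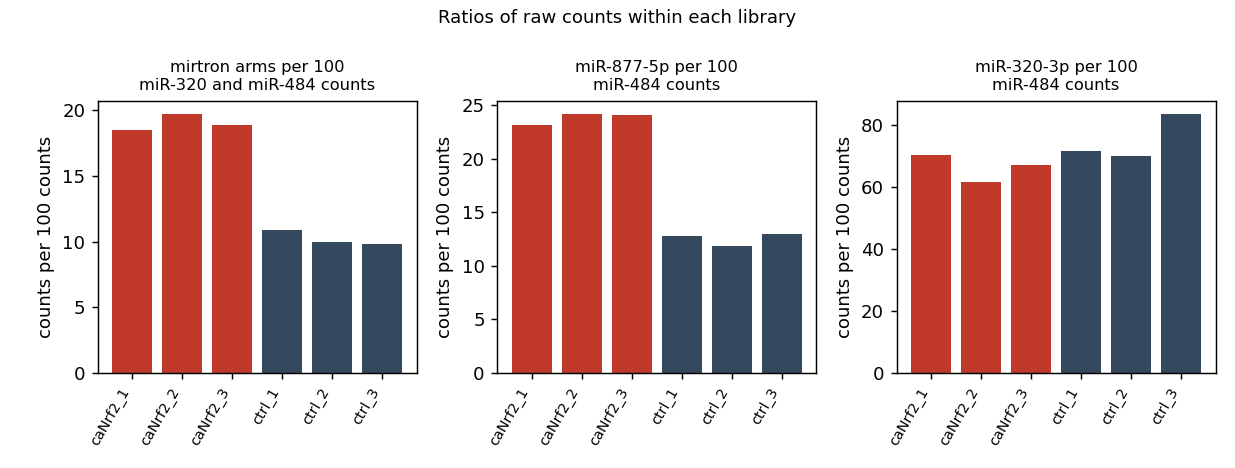
Raw counts per 100 counts in each of the 6 libraries (caNrf2 in red, ctrl in grey), for all mirtron arms over miR-320 and miR-484, for miR-877-5p over miR-484, and for miR-320-3p over miR-484. The mirtron ratios are 18.5 to 19.8 in caNrf2 and 9.82 to 10.9 in ctrl libraries, while the miR-320-3p ratio overlaps between groups.

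Whether the balance of a hairpin's arms moved was tested for the 2 precursors with at least 10 counts of each arm in every library. The 5p arm made up 62.0% ± 1.21 of miR-1981 reads in caNrf2 and 62.7% ± 1.14 in ctrl fibroblasts (two-sided exact permutation p = 0.6 on the log2 ratio). For miR-702 it made up 27.8% ± 4.75 in caNrf2 and 24.2% ± 3.77 in ctrl fibroblasts (two-sided exact permutation p = 0.5). After Benjamini-Hochberg adjustment over the 2 tests both exact p-values were 0.6, and 3 against 3 libraries cannot go below 0.1. The log2 ratio of 5p to 3p differed by -0.04 for miR-1981 and 0.26 for miR-702. Each difference was smaller than the SD of either group. miR-320 reads came almost wholly from the 3p arm, the 5p share being 0.0241% ± 0.0126 in caNrf2 and 0.0240% ± 0.0240 in ctrl fibroblasts.

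Other hairpins that fill an intron were sought in the annotation by position alone, after the members' values had been seen. Of 2201 annotated miRNA genes, 22 had both ends within 3 bases of the ends of an intron of a gene on the same strand, among them Mir877, Mir1981 and Mir1224. Of these, 2 matched no listed miRNA name by their annotated symbols (Gm24589 and Gm27471), which left 20. The 17 others had 36 listed arms, of which 8 had enough counts to be tested, 3 of them called higher and 1 lower. Over all tested miRNAs 14.1% were called higher and 11.6% lower. The median change of the 8 arms was 0.37 on the log2 scale, against 0.03 over all tested miRNAs. The arms that passed the filter are not a fair sample of all 36, since a low arm can pass through the group in which it is high. miR-7070-3p, from an intron of Fbxw9, had 3.58, 2.74 and 2.79 CPM in caNrf2 libraries, against 1.16, 0.913 and 0.839 CPM in ctrl libraries (log2 fold change 1.66 ± 0.22, edgeR adjusted p = 5.93e-04). miR-6923-5p, from an intron of Myh3, a myosin heavy chain of developing muscle, had 2.52, 2.83 and 4.55 CPM in caNrf2 libraries, against 1.25, 1.22 and 1.53 CPM in ctrl libraries (1.32 ± 0.27, edgeR adjusted p = 0.00469). These rises, at low levels, held in all 14 alternatives run for each.
miR-7070-3p: cAGGCUCUccuucccuccag
miR-6923-5p: gUGAGGGCaggaggauuggggugu
miR-6944-3p: uAACUCUUcccuugugcccucag

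In these sequences, with the seed in capitals, the 5p arm starts with GU, as all 4 mirtron 5p arms given above do, and the 3p arms end with AG, which among the mirtron members' 3p arms only that of miR-1224 does. miR-6944-3p, from an intron of the actin-binding protein gene Dbn1, had 114, 113 and 119 CPM in caNrf2 libraries, against 80.4, 103 and 70.0 CPM in ctrl libraries. The change was 0.44 ± 0.14 on the log2 scale (edgeR adjusted p = 0.0399), and it no longer passed with RLE size factors (0.0620) or when any library except ctrl library 2 was left out (0.0711 to 0.154). The fall was in miR-3102-3p, from an intron of Arhgef17. It had 22.7 ± 1.56 CPM in caNrf2 and 30.97 ± 3.12 CPM in ctrl fibroblasts (log2 fold change -0.45 ± 0.14, edgeR adjusted p = 0.0372). It no longer passed when any library except ctrl library 2 was left out (0.0520 to 0.117), with library totals only (0.0561) or in thinned counts (0.0522). The calls among arms of intron-filling hairpins thus included a fall as well as rises. The other tested arms of the miR-3102 hairpin did not fall and were not called. They were miR-3102-3p.2-3p (0.59 ± 0.33, edgeR adjusted p = 0.223) and miR-3102-5p.2-5p (0.08 ± 0.18, edgeR adjusted p = 0.767). miR-3102-5p, which shares the seed of miR-702-5p, had 7, 13 and 13 counts in caNrf2 libraries and 8, 9 and 11 counts in ctrl libraries and was not tested.

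A list of other miRNAs reported to be made without Drosha held 11 names of miR-1839, miR-664, miR-3102, miR-1982 and miR-1983. Of the 8 tested, 3 were called higher and 1 lower, around a median of 0.35 on the log2 scale, beside 14.1% higher, 11.6% lower and a median of 0.03 over all tested miRNAs. The fall was miR-3102-3p, given above. The arms of miR-3102 and miR-1982 also belong to the intron-filling hairpins above, so these lists share members and are not separate observations. miR-664-5p and miR-1839 come from small nucleolar RNA-like precursors. miR-664-5p rose to 83.2 ± 3.24 CPM in caNrf2 fibroblasts, against 53.8 ± 4.43 CPM in ctrl fibroblasts (log2 fold change 0.63 ± 0.11, edgeR adjusted p = 0.00287), in all 15 alternatives. The sparser arm miR-664-3p did not pass (0.37 ± 0.13, edgeR adjusted p = 0.0562), nor did it in any of its 14 alternatives. miR-1839-5p had 235 ± 18.2 CPM in caNrf2 and 187 ± 16.5 CPM in ctrl fibroblasts (0.33 ± 0.10, edgeR adjusted p = 0.0313), and miR-1839-3p also rose (0.62 ± 0.17, edgeR adjusted p = 0.0199). miR-1839-5p no longer passed when any library except caNrf2 library 1 or ctrl library 3 was left out (0.0910 to 0.165), with RLE size factors (0.0620) or by DESeq2 (0.0646). miR-1839-3p no longer passed without caNrf2 library 1 (0.0767), ctrl library 2 (0.0597) or ctrl library 3 (0.106). miR-1983, a tRNA-like sequence, had 151 ± 10.6 CPM in caNrf2 and 166 ± 4.13 CPM in ctrl fibroblasts and did not pass (-0.14 ± 0.09, edgeR adjusted p = 0.299). miR-451a, which needs Drosha but not Dicer, did not pass either (0.48 ± 0.20 on the log2 scale, edgeR adjusted p = 0.114).

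The miRNAs whose log2 CPM followed miR-877-5p most closely over the 6 libraries, among 366 others averaging 10 CPM or more, were miR-672-5p (Pearson r = 0.996), miR-129-5p (0.995) and miR-138-5p (0.991). Those closest to miR-484 were miR-409-3p (0.944), miR-494-5p (0.903) and miR-1943-5p (0.896). These correlations are descriptions over 6 shared libraries, in which the difference between the groups enters. The 3 miRNAs closest to miR-877-5p rose far more than miR-877-5p, by log2 fold changes of 1.44 ± 0.12, 2.02 ± 0.09 and 3.46 ± 0.15.

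Markers of fibroblasts and of other cells moved with the groups beside the rises of the mirtron arms. Of the 7 fibroblast miRNAs 0 were called higher and 3 lower, namely miR-10b-5p, miR-199a-5p and miR-199a-3p (changes of -0.56 ± 0.10, -0.51 ± 0.09 and -0.41 ± 0.10 on the log2 scale, with adjusted p of 0.00245, 0.00269 and 0.0140 by edgeR). In the other direction, miR-143-3p and miR-145a-5p lay higher in every caNrf2 library than in any ctrl library. Both were short of the threshold (0.28 ± 0.09 and 0.31 ± 0.11, with adjusted p of 0.0512 and 0.0602 by edgeR). miR-21a-5p and miR-214-3p overlapped between the groups. Of 5 leukocyte miRNAs 3 were called higher, and the list summed to 154 to 230 CPM in caNrf2 and 34.2 to 66.7 CPM in ctrl libraries. The calls were miR-223-3p and both arms of miR-142a. Most of the sum was miR-142a-5p, at 143 ± 33.1 CPM in caNrf2 and 39.6 ± 14.1 CPM in ctrl fibroblasts. miR-511-5p was not called, and miR-150-5p overlapped between the groups (-0.10 ± 0.17 on the log2 scale, with an adjusted p of 0.693 by edgeR). Muscle miRNAs summed to 543 to 720 CPM in caNrf2 and 335 to 411 CPM in ctrl libraries (2 of 3 called higher, with miR-1a-3p too sparse to test), and erythroid miRNAs to 495 to 589 CPM in caNrf2 and 352 to 410 CPM in ctrl libraries (1 of 3 higher). The erythroid sum was almost wholly miR-486a-5p, at 534 ± 47.7 CPM in caNrf2 and 386 ± 32.5 CPM in ctrl fibroblasts. The erythroid miR-144-3p lay lower in every caNrf2 library, at 0.456 ± 0.172 CPM, than in any ctrl library, at 0.924 ± 0.358 CPM, a difference short of the threshold (0.501-fold, with an adjusted p of 0.0873 by edgeR). Of 2 neural miRNAs miR-9-5p was called higher, at 12.3 ± 0.98 CPM in caNrf2 and 7.58 ± 1.91 CPM in ctrl fibroblasts. The other, miR-124-3p, was too sparse to test. The single melanocyte miRNA, 6 keratinocyte miRNAs and 2 endothelial miRNAs held no call. The keratinocyte sums were 1573 to 2074 CPM in caNrf2 and 1011 to 1820 CPM in ctrl libraries. No marker was at 0 in every library. The part of other cell types in the mirtron rises was not tested, and in bulk RNA more cells of a type and more RNA per cell cannot be told apart.

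**Figure D5:**
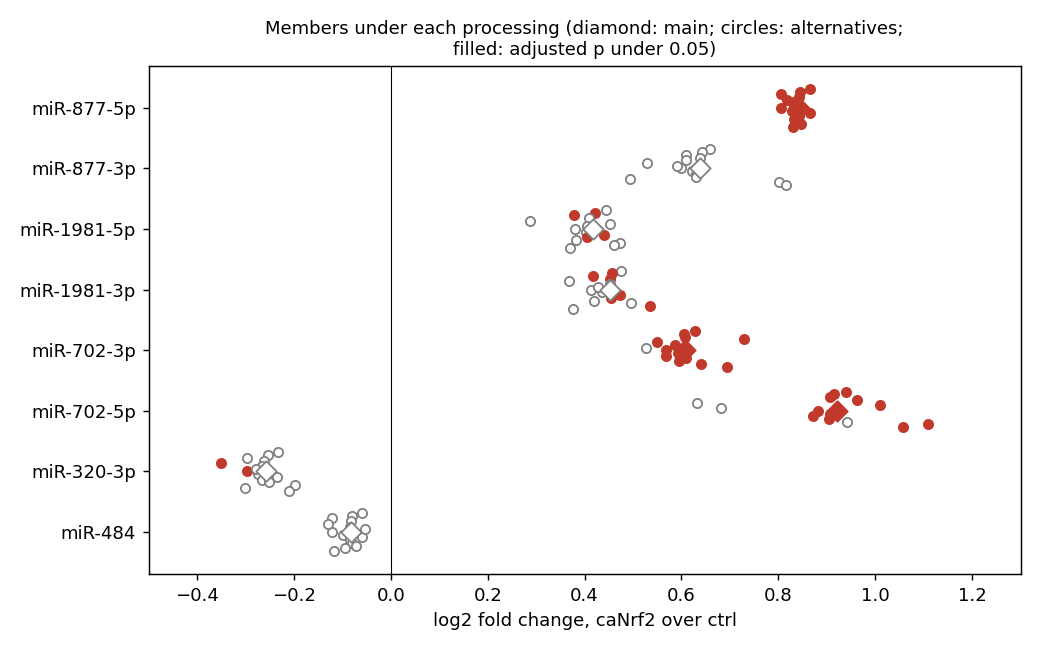
Log2 fold change (caNrf2 over ctrl) of the 8 tested members in the main processing (diamond) and in up to 15 alternatives (circles), filled where the adjusted p was under 0.05. miR-877-5p stays between 0.81 and 0.87 and is called throughout, no member changes sign, and miR-484 and miR-877-3p are never called.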

How the data were processed

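Each deposited file gives, for 1 library, the authors' raw count for every mature miRNA name. Tools listed in the submitters' processing notes are cutadapt, Bowtie, featureCounts, edgeR and CASAVA 1.8, with the mm10 build and no order or settings. How reads that fit several precursors were counted, and whether strand was used, is not given in the sources used here. The file headers put all 6 libraries in the same run and lane. No molecular identifiers are named, so limits cover counting error only. Groups and numbers came from the sample titles. 488 names had no count in any library.

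The quasi-likelihood test of edgeR 4.0.16 (R 4.3.3) was fitted with group as its single term, after TMM scaling and filterByExpr (minimum count 10; threshold 0.05 on Benjamini-Hochberg adjusted p over all 697 tested miRNAs). SEs came from the F statistic. Members were read from that table by name. Those with at least 10 counts in every library, and miR-877-3p, are given by library. Arm balance used log2 ratios with 0.5 added to each count. Members and lists were chosen with earlier results of these data known. Other miRNAs from intron-filling hairpins, miR-3102-5p and their alternatives were added after values were seen. The likeness rule took the 3 most correlated miRNAs for the most abundant member of each class. Introns came from GENCODE M21 (mm10), sequences from RefSeq (9 of 11 members matched) and folds from RNAfold 2.7.2. Alternatives used RLE size factors, library totals, DESeq2 1.42.0, limma-voom (limma 3.58.1), other filters, a replicate block, thinning and leaving out libraries. On counts simulated for the 697 miRNAs, edgeR recovered 47.8% of 1.5-fold, 86.6% of 2-fold and 98.5% of 4-fold changes. False calls made up 1.27% of all its calls there.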

Additional observations from a re-analysis of the deposited data

How the results depend on the processing

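No tested member changed sign in any alternative. The count of members called higher, 3 in the main processing, was 5 with no filter, 5 by DESeq2 and 5 by limma-voom, where both miR-1981 arms passed as well, and between 1 and 4 when single libraries were left out, the lowest being without ctrl library 3, where miR-877-5p alone was called. Smaller sets of libraries have less power by construction. The count of members called lower, 0 in the main processing, was 1 with RLE size factors and 0 to 1 with single libraries left out, the member being miR-320-3p. Over all miRNAs 98 were called higher and 81 lower, against 60 higher when a mean of at least 10 CPM was required, where fewer miRNAs were tested, 71 to 97 higher with single libraries left out, and 91 higher and 92 lower with RLE size factors. The arm balance kept its sign, at -0.081 to -0.0085 for miR-1981 and 0.079 to 0.41 for miR-702 with single libraries left out. Among the added miRNAs, miR-3102-5p.2-5p (0.081) turned to -0.062 without caNrf2 library 1 and to -0.035 without ctrl library 3, in a range of -0.062 to 0.19 with single libraries left out, and miR-7018-3p (-0.25) turned to 0.039 without ctrl library 3, in a range of -0.55 to 0.039, none of them called; the cause was not tested. The labels do not say whether replicate numbers pair the samples, and correlations over 3 libraries per group cannot decide it. Same-numbered libraries had correlated deviations of 0.178, 0.114 and -0.218 for numbers 1, 2 and 3, and caNrf2 libraries 2 and 3 correlated best with another number. With a replicate block 4 members were called higher, the addition being miR-1981-3p (edgeR adjusted p = 0.0445), with 102 miRNAs higher and 87 lower in all. Depth limits miR-1224, miR-320-5p and miR-877-3p most, and p-values measure the spread between these mice in culture only.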
